A study of Caenorhabditis elegans with 3 samples.

Results

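The C-type lectin (clec) genes of Caenorhabditis elegans were examined for binding of the nuclear receptor NHR-25 near their transcript starts. The members were the protein-coding genes of the Ensembl annotation of WBcel235 (ce11) named clec with a number, 240 of 19971 protein-coding genes of the nuclear chromosomes. Sites of NHR-25 were mapped with chromatin immunoprecipitation followed by sequencing, using whole L2 larvae of mixed sex. The worms were of strain OP33, which carries the unc-119(ed3) mutation on chromosome III and the transgene wgIs33. The mutated gene, unc-119, is rescued in this strain. NHR-25 was made from wgIs33 with GFP and FLAG fused to its C-terminus. All 3 samples were biological replicates of this strain and stage and formed 1 group, so no treated, mutant or untagged worms were compared. Replicate 3 had another labelled source of worms than replicates 1 and 2, and its label alone names sonication.

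C-type lectin domains are protein folds known for binding carbohydrates, often with calcium. In nematodes they form a large, mostly secreted family, and many members are expressed in the intestine and change in expression when the animals meet pathogens. NHR-25 is a relative of the insect FTZ-F1 and mammalian SF-1 receptors, which can bind DNA as monomers at an extended AGGTCA sequence, and it is known in the epidermis, in molting and in the vulva. Signal from whole animals cannot tell a site that is bound in few cells from one that is weakly bound in many.

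Few C-type lectin genes had an NHR-25 site at their start. The authors' optimal list holds 4548 regions that passed a reproducibility threshold, and a gene was counted as bound when the summit of such a region lay between 1000 bp upstream and 200 bp downstream of any of its transcript starts. Of the 240 C-type lectin genes, 2 were bound (0.833%, 95% Wilson interval 0.229 to 2.99%), against 2678 of all 19971 protein-coding genes, which is 13.4%. The bound members were clec-53 on chromosome I and clec-126 on chromosome II. Members and all genes were counted in the same way, no test of the difference was made, and the intervals cover counting error only.

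The replicates gave the same picture when each was read alone. Each replicate has a list of 30000 regions that mix peaks with background, and the 4548 regions of highest signal were taken from each. In replicate 1 the summit of such a region lay in the window of 1 C-type lectin gene, clec-126, against 13.5% of all genes. In replicate 2 this held for 4 members, clec-53, clec-57, clec-104 and clec-140, against 13.3% of all genes. In replicate 3 it held for 2 members, clec-57 and clec-126, against 13.2% of all genes. The mean was 2.33 ± 1.53 C-type lectin genes, or 0.972% ± 0.636 of the family, against 13.3% ± 0.164 of all genes (SD, n = 3 replicates), and the highest share of the family in a replicate, 1.67%, lay below the lowest share of all genes. No member had an optimal summit supported by the strongest regions of all 3 replicates (0 of 240, Wilson upper bound 1.58%), against 8.27% of all genes.

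**Figure D1:**
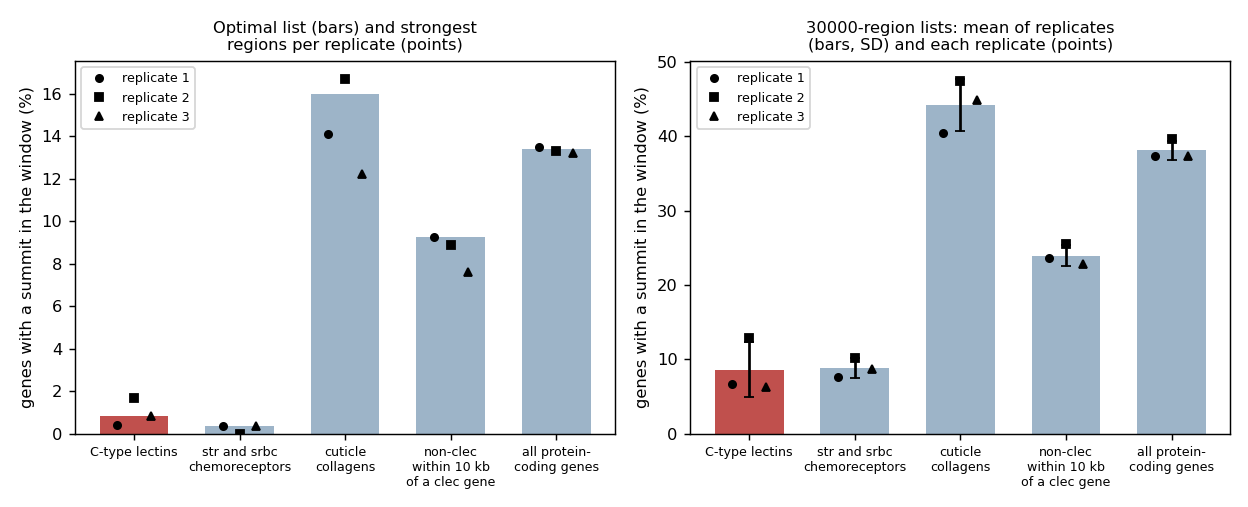
Percent of genes with a summit between 1000 bp upstream and 200 bp downstream of a start, for C-type lectin genes, 2 other large families, the non-clec genes within 10 kb of a clec gene, and all protein-coding genes. Left, the optimal list (bars) and the 4548 strongest regions of each replicate (points); right, the 30000-region lists (bars are the mean of 3 replicates, error bars the SD, points each replicate). C-type lectin genes stand at 0.833% and all genes at 13.4% in the optimal list.

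The site at clec-126 lies over tRNA genes, and its sequence is shown for that reason. The optimal region runs from 3519014 to 3519403 on chromosome II, has rank 3967 of 4548 by signal and a signal of 119 in the authors' units, and its summit lies 285 bp upstream of clec-126, which is the nearest protein-coding start. It covers a tRNA-Lys gene of 73 bases (3519250 to 3519322) and a tRNA-Thr gene of 72 bases (3519086 to 3519157), both on the minus strand, with the summit between them at 41 bp from the first and 52 bp from the other. The stretch holding both is printed from the RefSeq sequence of ce11, minus strand, 5′ to 3′, at II:3519072-3519336, with the tRNA genes in capitals.
clec-126 site: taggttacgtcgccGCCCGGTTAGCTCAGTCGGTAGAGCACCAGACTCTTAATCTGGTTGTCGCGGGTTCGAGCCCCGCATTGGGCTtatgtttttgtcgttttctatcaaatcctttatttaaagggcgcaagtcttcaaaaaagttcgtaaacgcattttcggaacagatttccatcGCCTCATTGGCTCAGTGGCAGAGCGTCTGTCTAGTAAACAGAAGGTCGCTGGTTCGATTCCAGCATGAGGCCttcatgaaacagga

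In replicate 1 the strongest region at clec-126 had rank 3457 and a signal of 29.2. In replicate 2 its rank was 10063 and its signal 11.0, and in replicate 3 its rank was 3652 and its signal 25.5. The site was thus among the strongest regions in replicates 1 and 3 and outside them in replicate 2. The summits of these regions lay 272, 315 and 194 bp upstream of the start in replicates 1, 2 and 3. The replicate 3 summit fell inside the tRNA-Lys gene. Overlap with a tRNA gene is uncommon among the sites as a whole, since 79 of 4524 nuclear optimal regions (1.75%) overlapped one of 612 tRNA genes. Windows with a tRNA gene in them were found at 2 C-type lectin genes, clec-99 and clec-126, of which 1 was bound, and at 145 of all genes, of which 29 (20%) were bound. With or without a tRNA gene in the window, 13.4% of all genes were bound.

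The site at clec-53 lies in another gene. Its optimal region (I, 3873775 to 3874164) had rank 3267 and a signal of 140, and its summit was 568 bp upstream of clec-53 and 273 bp downstream of the start of uba-5, inside the uba-5 gene. uba-5 encodes an E1-like enzyme that activates the ubiquitin-like protein UFM1, and its start was the nearest to the summit. The ranks in replicates 1, 2 and 3 were 8353, 3355 and 4707, with signals of 16.1, 23.1 and 21.6, so the site was among the strongest 4548 regions in replicate 2 alone and narrowly outside them in replicate 3. The 3 summits lay within 35 bp of one another. When each summit was given to its nearest protein-coding start, 1 of the 240 members remained, clec-126.

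clec-57, on chromosome V, had no optimal site but was among the strongest regions in 2 replicates. Its regions had ranks 3396 and 3830 in replicate 2 and 4271 in replicate 3, and no region in its window was listed in replicate 1. The summits of the strongest region in those replicates, 659 and 694 bp upstream of clec-57, lay closer to the start of srz-97, a gene named as a serpentine receptor of class Z. They were inside the gene of a small nuclear RNA, F08H9.11 (14468569 to 14468733, minus strand), in replicate 2 and 32 bp from it in replicate 3. The replicate 2 region of rank 3830 had its summit 446 bp upstream of clec-57, which was the nearest start. That summit lay 52 bp from the small nuclear RNA gene. The replicate 2 summit of rank 3396 with 50 bases on either side is printed from the plus strand of ce11 at V:14468522-14468622. The bases of the small nuclear RNA gene are in capitals.
clec-57 replicate 2 summit: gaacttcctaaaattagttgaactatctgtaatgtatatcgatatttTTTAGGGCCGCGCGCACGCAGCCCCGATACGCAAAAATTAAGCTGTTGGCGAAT

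The remaining members among the strongest regions of replicate 2 shared those regions with neighbours. At clec-104 (I) the region of rank 3696 was 966 bp upstream of clec-104 and 246 bp upstream of ciao-1, a gene of cytosolic iron-sulfur protein assembly, and neither replicate 1 nor replicate 3 listed a region in the clec-104 window. At clec-140 (II) the region of rank 3880 had its summit 272 bp upstream of clec-140, the nearest start, with hmg-11 and T05A7.6 also in reach. hmg-11 encodes a high mobility group protein. Replicate 3 listed a region there at rank 7207, 75 bp upstream, and replicate 1 none. The 50 bases downstream of the replicate 2 summit at clec-140 hold AGGTCA, the core of the site that nuclear receptors of this kind bind. The summit with 50 bases on either side is shown with it in capitals (plus strand, II:4672738-4672838).
clec-140 replicate 2 summit: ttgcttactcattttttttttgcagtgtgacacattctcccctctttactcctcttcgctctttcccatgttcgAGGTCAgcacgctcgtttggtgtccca

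The AGGTCA sequence, searched on both strands, was found within 50 bases of 6.56% of optimal summits, and the longer TCAAGGTCA, which contains it, in 0.575%. No share for windows of this width away from summits is given, so these shares do not show enrichment at the sites. A match describes the letters alone and does not show that the sequence was bound.

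In the whole 30000-region lists, which reach far into background, more members had a region but the family stayed below all genes. Summits lay in the windows of 16, 31 and 15 C-type lectin genes in replicates 1, 2 and 3, or 6.67, 12.9 and 6.25% of the family, against 37.4, 39.6 and 37.4% of all genes. The mean was 20.7 ± 8.96 members, or 8.61% ± 3.73, against 38.2% ± 1.30 of all genes (SD, n = 3). Replicate 2 listed about as many members as the other two together. Apart from the 5 members named above, the members with a summit had it outside the strongest regions. The median rank of the best region per gene was 17105, 13714 and 14223 for C-type lectin genes, against 7772, 8312 and 7930 for all genes with a summit.

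Recurrence across the replicates was counted next. A summit was listed in at least 1 replicate for 41 members (17.1%), against 53.8% of all genes, and in each of the 3 replicates for 5 members (2.08%), against 24.2% of all genes. Of the 41 members listed at all, 25 had a summit in 1 replicate, 11 in 2 and 5 in 3, so 12.2% of them recurred in all 3. Of the 10751 genes listed at all, 45.0% recurred in all 3. The remaining 199 C-type lectin genes had no summit in their window in any of the replicates' 30000 regions.

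**Figure D2:**
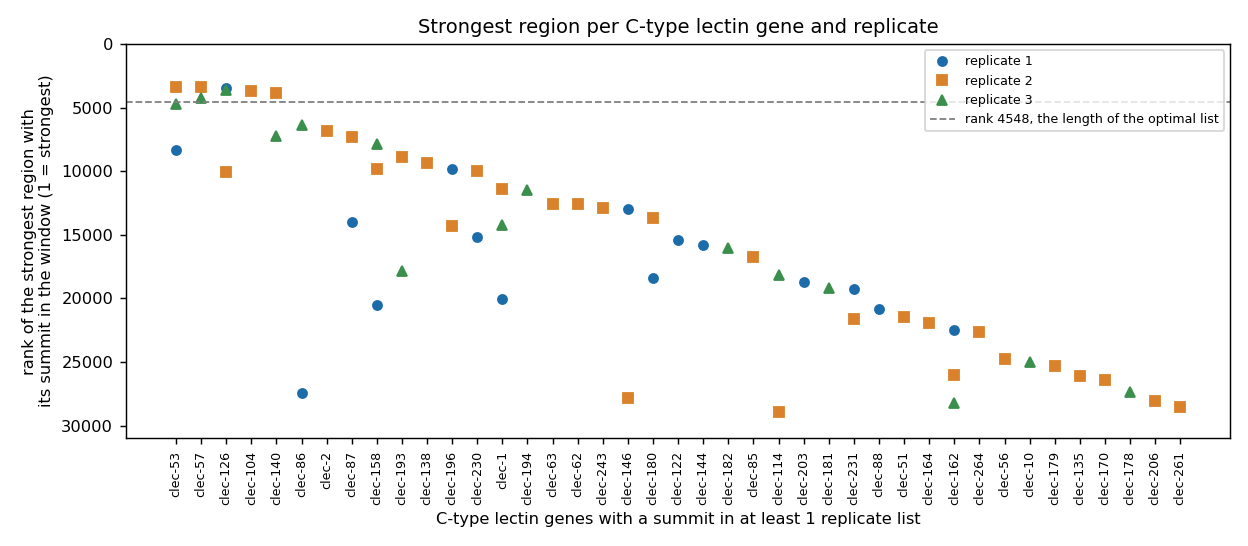
Rank by signal of the strongest region with its summit in the window (1 is the strongest, y axis inverted), for the 41 C-type lectin genes with a summit in at least 1 replicate list, ordered by their best rank; circles, squares and triangles are replicates 1, 2 and 3. The dashed line is rank 4548; 5 members have a point above it, and clec-53, clec-126, clec-158, clec-162 and clec-1 have a point in every replicate.

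The members listed in all 3 replicates were clec-53, clec-126, clec-158, clec-162 and clec-1. At clec-158 (III) the ranks were 20563, 9855 and 7828 in replicates 1, 2 and 3, with summits 722, 748 and 930 bp upstream, which spread over 208 bp. At clec-162 (III) the ranks were 22470, 26066 and 28251, all in the weaker part of the lists, with summits within 90 bp of one another. At clec-1 (V) the ranks were 20043, 11414 and 14223, and the summits lay 70, 99 and 135 bp downstream of the start. For these 3 sites the C-type lectin gene was the nearest protein-coding start, and none of them was among the strongest regions of a replicate. Of the 16 members listed in at least 2 replicates, 8 had summits within 100 bp of one another, taking the closest summits of each pair of replicates, and in the rest the summits lay further apart.

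Some of the listed regions lay nearer to other genes. The 41 members drew on 20, 34 and 18 distinct regions in replicates 1, 2 and 3. The C-type lectin gene was the nearest protein-coding start to the summit in 16 of 20, 28 of 35 and 14 of 18 pairs of gene and region, and another gene was also in reach in 3, 11 and 7 of them. Some of these neighbours were C-type lectin genes themselves. In replicate 2 clec-62 and clec-63 shared a region nearest to clec-63, and in replicate 1 a region of clec-230 was nearest to clec-231. Examples from outside the family are rsa-1, a regulator of a centrosomal phosphatase, at clec-87, ani-2, an anillin, at clec-88, and skn-1, a stress-response transcription factor, at clec-178. At clec-144, 1 of the regions in replicate 1 had its summit inside the gene of the microRNA mir-355.

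A set of 6 members with a described function, several of them studied in infection, was looked up whatever their values. The genes clec-38, clec-39, clec-41, clec-49 and clec-60 had no summit in the window in the optimal list or in any replicate list, as was so for 199 of the 240 members and for 9220 of all 19971 genes in the replicate lists. Their nearest optimal summits were 41312, 37662, 29720, 84675 and 19009 bp from their starts. The gene clec-87 had regions of rank 14011 in replicate 1 and 7328 in replicate 2, at nearly the same position, and none in replicate 3. Both of these lay closer to rsa-1 than to clec-87.

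C-type lectin genes also lay far from optimal sites of any kind. The median distance from a member's closest start to the nearest optimal summit was 28434 bp (interquartile range 14714 to 48292), against 11655 bp (3244 to 29382) over all genes. For 196 members (81.7%) the nearest summit was more than 10 kb away, against 54.0% of all genes. The distances of the members ran from 285 to 423876 bp.

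**Figure D3:**
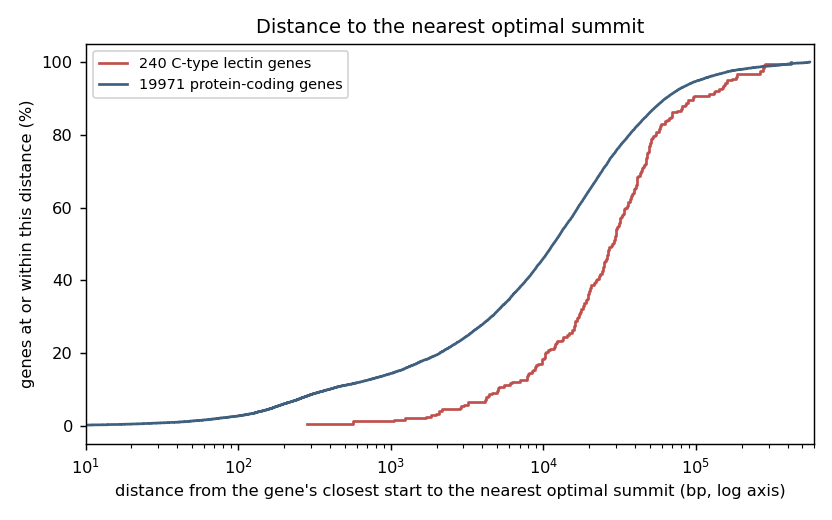
Cumulative percent of genes whose closest start lies at or within a given distance (bp, log axis) of the nearest optimal summit, for the 240 C-type lectin genes and for all 19971 protein-coding genes. The C-type lectin curve lies to the right of that of all genes over most of its length, with medians of 28434 and 11655 bp.

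A few optimal sites lay just outside the windows. At clec-221 (V), which overlaps the bound gene F17C11.4, the summit was 568 bp downstream of the clec-221 start, inside clec-221. It had rank 3178 and a signal of 143, and clec-221 was the nearest start. At clec-196 (IV) it was 1055 bp downstream of the closest start and 367 bp upstream of hsp-1, a gene of the HSP70 chaperone family, and this was a strong site of rank 118 with a signal of 845. At clec-1 it was 1251 bp downstream of the start, with rank 2684 and a signal of 163, and this site was supported by all 3 replicates. At clec-144 (II) it was 1694 bp downstream of the start, with rank 3952 and a signal of 120, nearest to pes-5. At clec-91 (I) it was 1833 bp upstream, with rank 2274 and a signal of 183, and clec-91 was the nearest start.

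The sites at clec-221 and clec-196 are printed because they differ in base content and in motif. The sequence within 50 bases of the clec-221 summit (plus strand, V:10953816-10953916) had 28.7% GC and no match to the motifs searched, whereas that around the clec-196 and hsp-1 summit (plus strand, IV:17278542-17278642) had 48.5% GC and 2 overlapping matches to GAGAGA, read on the minus strand and shown in capitals. The median over all optimal summits was 42.6% GC, and 24.6% of the same windows held GAGAGA on either strand.
clec-221 intragenic site: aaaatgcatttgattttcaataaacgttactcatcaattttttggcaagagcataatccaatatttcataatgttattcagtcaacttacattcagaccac
clec-196 and hsp-1 site: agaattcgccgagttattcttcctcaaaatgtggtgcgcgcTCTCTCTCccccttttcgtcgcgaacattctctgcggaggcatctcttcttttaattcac

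Most members lie in genomic clusters. Joined at gaps of at most 50 kb, the 240 genes formed 48 clusters of at least 2 genes with 173 members, and 67 genes stood alone. In the clusters 1 of 173 members was bound, clec-126, and among the single genes 1 of 67, clec-53, against 13.4% of all genes. A summit in at least 1 replicate list was found at 20 of 173 clustered members, in 16 of the 48 clusters, and at 21 of 67 single genes, against 53.8% of all genes, and no test of the difference was made. Over the spans of the clusters, extended by 1000 bp on each side, the 30000-region lists held 7.62 ± 2.14 summits per 100 kb (SD, n = 3), with 6.97 in replicate 1, 5.87 in replicate 3 and the most in replicate 2. Around the single genes they held 17.4, 15.5 and 15.5 per 100 kb (16.1 ± 1.09), and over the nuclear genome 29.9. The optimal list held 0.826 summits per 100 kb in the clusters and 2.64 around the single genes, against 4.51 over the genome.

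The largest cluster, on chromosome V (16839121 to 16869840), has 13 members from clec-40 to clec-33 and held no summit in any of the lists, background regions included. The same was so for 7 members from clec-93 to clec-99 on chromosome I and for 7 members from clec-250 to clec-257 on chromosome V. The cluster of 12 members from clec-67 to clec-78 on chromosome IV (3922165 to 4014235) held 2, 7 and 1 summits in replicates 1, 2 and 3, most of them near the end of clec-78 or beyond it. It also held 1 optimal summit, of rank 3877 and nearest to hlh-30. The cluster of 6 members from clec-165 to clec-170 on the same chromosome held 1, 4 and 1.

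The cluster of clec-126 held more summits than these in each replicate list. It has 9 members on chromosome II (3516003 to 3581475), from clec-125 to clec-134, and held 20, 16 and 14 summits in replicates 1, 2 and 3 and 4 optimal summits. The optimal sites were nearest to col-72, a cuticle collagen gene, with rank 1764, to dnc-3, a dynactin subunit gene, with rank 1930, to W09G10.9 with rank 3855, and to clec-126. The site at W09G10.9 also overlapped a tRNA gene. All but 1 of these sites therefore lay nearest to genes that are not C-type lectins. No other member of the cluster had an optimal summit in its window.

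**Figure D4:**
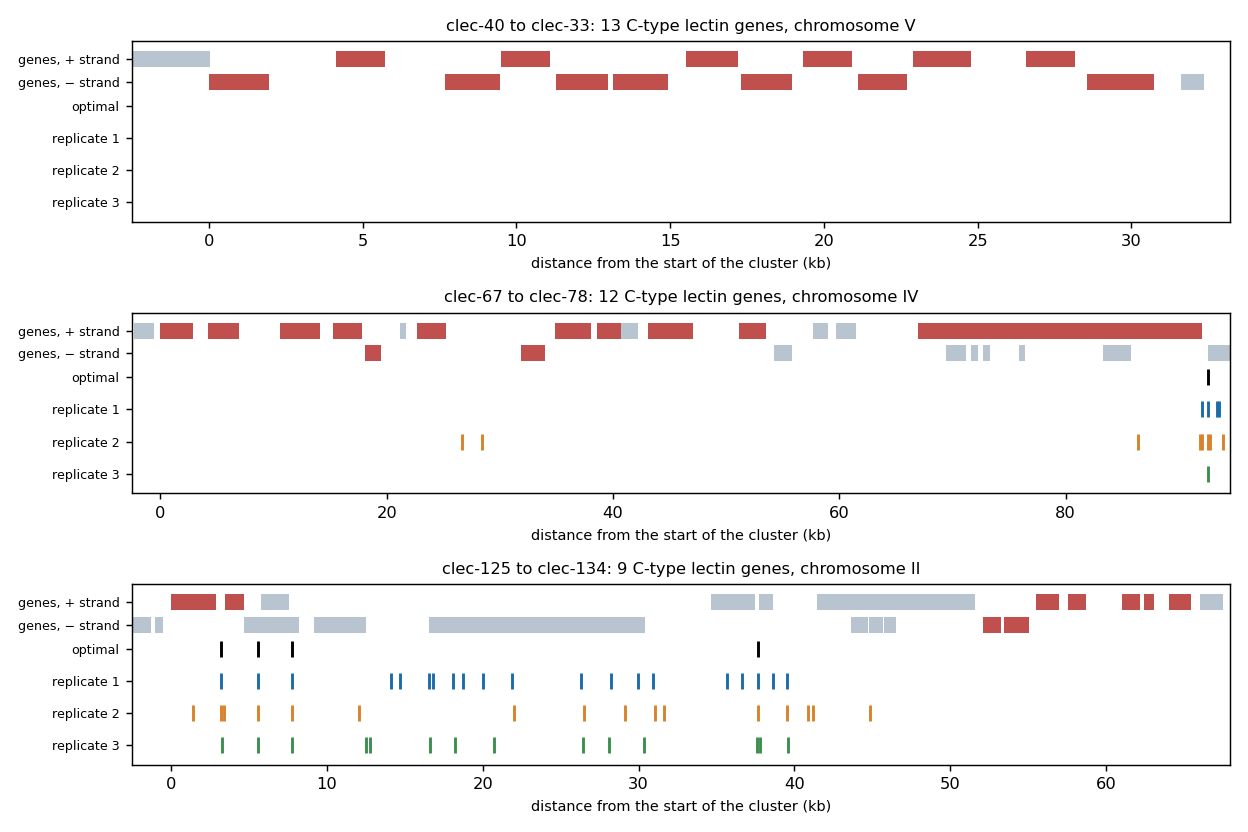
Genes (bars, C-type lectin genes in red and other protein-coding genes in grey, by strand) and summits (ticks, from the optimal list and the 30000-region list of each replicate) over the 3 clusters with the most members, against distance from the start of the cluster in kb. The cluster from clec-40 to clec-33 holds no summit, and in the cluster from clec-125 to clec-134 the summits lie mostly at genes other than C-type lectins.

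The sites in these neighbourhoods were mostly nearest to other genes. In all clusters together, 9 optimal summits lay in the spans, of which 1 was nearest to a C-type lectin gene, and 7 lay around the single genes, of which 2 were. These sites include a strong one at atp-1, a gene of the mitochondrial ATP synthase, in the clec-15 cluster (rank 197). Of the other protein-coding genes inside the clusters, 6 of 173 (3.47%) were bound, and of those overlapping the single genes 3 of 17 (17.6%), against 13.4% of all genes. Of 777 other genes within 10 kb of a C-type lectin gene, 72 (9.27%) were bound in the optimal list. In the replicates' strongest regions their share was 8.58% ± 0.876, and in the 30000-region lists it was 23.9% ± 1.39 (SD, n = 3), between those of the family and of all genes.

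The family was not spread evenly over the chromosomes. Chromosome V holds 86 members, IV 53, II 48, I 36, III 14 and X 3. The share of all genes that were bound was lowest on V, at 9.35%, and ran from 11.7% on II to 19.7% on III elsewhere. Divided by length into 3 equal parts, the chromosomes held 202 members (84.2%) in their outer parts, against 62.2% of all genes. Of all genes in the outer parts 12.4% were bound, and in the middle parts 15.1%. The part of chromosomal position in the low count was not tested.

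Upstream distance and number of starts also differed between members and all genes. The median distance to the next protein-coding gene upstream was 782 bp for C-type lectin genes and 937 bp for all genes. With less than 500 bp upstream, 1 of 76 members was bound, against 15.5% of all genes, and with 500 to 1000 bp 1 of 70, against 15.2%. With 1000 to 2000 bp 0 of 50 were bound, against 395 of 3299 genes. With 2000 to 5000 bp 0 of 28 were bound, against 10.5%, and with 5000 bp or more 0 of 16, against 11.3%. A single annotated start, and so a single window, was found for 217 members (90.4%) and for 72.6% of all genes. The part of these features in the low count was not tested.

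**Figure D5:**
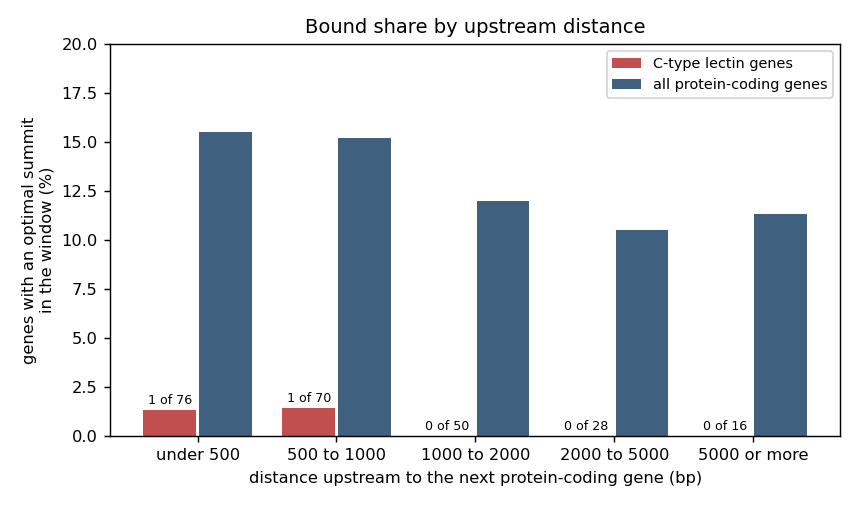
Percent of genes bound in the optimal list by distance upstream to the next protein-coding gene, for C-type lectin genes (left bar of each pair, with the number bound of the number in the bin) and all protein-coding genes (right bar). The bound share of all genes lies between 10.5 and 15.5% in every bin, and no more than 1 C-type lectin gene is bound in any.

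The sequence of the windows differed little in GC content. The median over the 1201-base windows was 35.6% GC for C-type lectin genes, against 34.9% for all genes and 36.1% for bound genes. Below 32% GC 0 of 26 members were bound, against 7.06% of all genes in that range, and at 32 to 36% 1 of 104, against 11.9%. At 36 to 40% 0 of 84 members were bound, against 17.3%, and at or above 40% 1 of 26, against 21.0%.

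The windows were searched for 3 short motifs. The sequence AGGTCA was found in the windows of 60 members (25%) and 26.7% of all genes, on either strand. Of those with it, 0 members and 14.4% of all genes were bound. The sequence GAGAGA was found in 96 members (40%) and 50.9% of all genes, and of those with it 1 member and 16.6% of all genes were bound. The extended half-site TCAAGGTCA was found in 3 members (1.25%), clec-182, clec-197 and clec-198, and in 0.771% of all genes. Of the genes with it 20.8% were bound, against 13.4% of all genes. None of the 3 members was bound. clec-197 and clec-198 share a single copy of it. The sites are printed in 41 bases of context, with the half-site in capitals, to show the copies that had no optimal summit. The clec-182 site lies 826 bp upstream of its start (IV:8799161-8799201, plus strand), and the shared site lies 168 bp downstream of the clec-197 start and 637 bp upstream of the clec-198 start (IV:17346511-17346551, minus strand).
clec-182 half-site: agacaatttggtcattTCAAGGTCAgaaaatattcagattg
clec-197 and clec-198 half-site: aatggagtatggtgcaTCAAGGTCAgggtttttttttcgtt

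Replicate 3 listed 2 regions in the window of clec-182, of ranks 16051 and 17209, at 321 and 105 bp upstream of the start and so away from the half-site. No replicate listed a region in the windows of clec-197 or clec-198.

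Nearly identical copies exist in the family. The annotation gives the names clec-15, clec-209 and clec-249 to a pair of genes each, so the 240 genes carry 237 names. The windows of the 2 copies were identical at 1200 of 1201 bases for clec-15, at 1201 of 1201 for clec-209 and at 1119 of 1201 (93.2%) for clec-249. None of these genes had a summit in any list. Reads from identical copies cannot be told apart, and how the authors placed them is not stated, so an absent region there does not show absent binding. The part of read placement in the low count was not tested.

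Other families gave both lower and higher shares than the C-type lectin genes. The chemoreceptor families str and srbc, also large and clustered, had 1 of 264 genes bound (0.379%, Wilson interval 0.0669 to 2.11%), str-176, with a signal of 268. In the 30000-region lists the share was 8.61% ± 3.73 for C-type lectin genes and 8.84% ± 1.33 for these chemoreceptors (SD, n = 3 each). All genes stood at 38.2% ± 1.30 in those lists. The cuticle collagens, structural proteins of the exoskeleton, had 25 of 156 genes bound (interval 11.1 to 22.6%), with signals of up to 420 at col-38, whose site lay nearer to rpl-5. A share as low as that of the C-type lectin genes was therefore also seen in another large family.

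Other groups of secreted immune effectors were split. Of the lysozymes 0 of 16 were bound, of the saposin-like proteins 0 of 31, and of the antibacterial factors and thaumatins 0 of 11. The Wilson upper bounds were 19.4, 11.0 and 25.9%, of which the first and last exceed the 13.4% of all genes. These bounds treat genes as independent, and no difference from all genes was tested for any of these lists. Of the caenacins and nlp antimicrobial peptides, which are known as epidermal, 6 of 19 were bound (31.6%, interval 15.4 to 54.0%). Among these were nlp-33 with a signal of 422 and nlp-29 with 308, and nlp-31 and nlp-34 shared a site of signal 310. Each of these 6 genes was supported by all 3 replicates. The galectins, lectins with another fold, had 3 of 12 bound (25%, interval 8.89 to 53.2%), an interval that includes the 13.4% of all genes. They were lec-4, lec-2 and lec-1, with signals of 162, 130 and 117. Support by all 3 replicates was found at 1 of 12 galectins (8.33%), lec-4, against 8.27% of all genes.

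Regulators of immune responses had 16 of 40 genes bound (40%, interval 26.3 to 55.4%), against 13.4% of all genes. Those of highest signal were nipi-3, which encodes a Tribbles-like kinase, with 678, zip-2, a bZIP transcription factor gene, with 665, tpa-1, a protein kinase C gene, with 521, and skn-1 with 494. The signals at clec-53 and clec-126, 140 and 119, had ranks 3267 and 3967 of the 4548 optimal regions, whose lowest signal was 107.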

How the data were processed

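The authors immunoprecipitated chromatin bound by tagged NHR-25 in 3 replicates and sequenced it. Per a note deposited with the files, they called regions per replicate and on the pooled replicates against 1 control (not analysed here) and passed the optimal list through a threshold on the irreproducible discovery rate. Which aligner and peak caller were run is not stated in them. The deposited lists give each region a signal, whose scaling is not stated and which was used only to rank and describe regions within a list, and a −log10 q-value, which was not used because it is tied at its top. The authors' summit offset gave the position. Lists of the ce10 build were not used. Peak lists hold no read counts, so depth is unknown.

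Gene starts were all transcripts of protein-coding genes in Ensembl release 115. Mitochondrial genes were left out, as were nhr-25, the tagged gene, and unc-119, the mutated and rescued gene of the strain. Support by a replicate means overlap of at least 1 bp with its 4548 strongest regions. Sequence came from RefSeq (ce11), and coordinates are 1-based. Intervals are Wilson intervals at 95%. Python 3.11.15, numpy 2.4.6 and pandas 2.3.3 were used, and window assignment was tested on simulated data. No test was made over genes. Named genes were the bound members, members among the strongest regions of at least 2 replicates, 5 just outside the window, 6 with a described function and the genes sharing their sites. Regions of single replicates, members listed in all 3 replicates and members with half-sites were named after their values were seen. The members and lists were chosen with earlier results of these data known.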

Additional observations from a re-analysis of the deposited data

How the results depend on the processing

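Of 70 recomputed values, 38 kept to within their limits, 32 moved and 0 reversed. The number of bound C-type lectin genes, 2 in the main count, was 0 (0%) with the stronger part of the optimal list, 1 with a window of 500 bp upstream, 4 with 2000 bp and 1 with the nearest start only, while all genes stood at 7.97, 10.7, 17.3 and 10.6%. All genes stood at 14.3% with any part of the region in the window and at 12.3% with the most upstream start. The optimal list could not be remade without a replicate, so regions supported by both others were kept, which gave 0 to 1 members (0 to 0.417%), 0 to 1 clusters with a bound member, 0 to 1 bound members that were the nearest start and 9.01 to 9.44% of all genes. The member was clec-126, seen without replicate 2, and 0 were seen without replicate 1 or without replicate 3. With the stronger part of the list 0 clusters and 0 nearest members remained, and with 2000 bp 2 bound members were the nearest start. The mean number of members among the strongest regions was 0 with 0.5 times as many regions, 5 with 2 times as many and 4.67 with 2000 bp, and it was 30.3 in the 30000-region lists with 2000 bp. Optimal summits supported by all replicates were at 1 member with 2 times as many regions and at 0 to 1 leaving out a replicate. The pooled list and RefSeq names, both chosen after seeing the data, each gave 2 bound members. The cause of these moves was not tested beyond the change of window or list itself. No paired analysis was possible because there is 1 group.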
